A study of Mus musculus with 12 samples.

Results

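The interferon-stimulated genes described here are Isg15, Ifit1, Ifit2, Ifit3, Irf7, Rsad2, Oasl2, Usp18 and Bst2. They were taken by symbol from the count table of each library, and all 9 were found among the 24421 genes listed. The study sequenced polyadenylated RNA from the liver and lung of newborn mice taken within the first hour after birth, in 4 groups of 3 libraries: WT liver, null liver, WT lung and null lung. WT mice were Man1a2+/+ and null mice were Man1a2-/- animals of the line Man1a2tm1.1Ahe, which carries a deletion of exon 2 and was bred from heterozygous parents. Man1a2 encodes a Golgi alpha-mannosidase that trims N-glycans, and the null mouse was examined as a model of biliary atresia, a bile duct disease of infants in whose livers signs of interferon activity have been described. The question asked here was whether these genes differ between WT and null mice in either tissue.

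Interferons are secreted proteins released when cells detect viral or misplaced nucleic acid. Type I interferons bind the receptor IFNAR1/IFNAR2, the kinases JAK1 and TYK2 pass the signal on to transcription factors, among them STAT2 and IRF9, and these bind a DNA element, the interferon-stimulated response element, in the promoters of its target genes. The genes studied here are classical targets and act at different points: Irf7 is a transcription factor that amplifies interferon production, Ifit1, Ifit2 and Ifit3 bind foreign RNA or the translation machinery, Rsad2 (viperin) and Oasl2 restrict viruses, Bst2 (tetherin) holds budding virions at the cell surface, Isg15 is a ubiquitin-like modifier, and Usp18 removes ISG15 and dampens signalling at IFNAR2. In the newborn liver, which still makes blood, they can be expressed by hepatocytes and by resident blood cells alike.

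The response element can be looked for in the genome, and its matches are shown because interferon acts on such genes through it. RefSeq promoters of build GRCm38.p6, covering 250 bases before to 50 bases after the transcription start, were given for 8 of the 9 genes, and none was given for Usp18. The core GAAANNGAAA was searched on both strands, with overlapping matches allowed. It was found in 5 of the 9 promoters of these genes, Ifit2 having 2 promoters, and in 3.44% of all 32851 promoters of the same length. Among the other interferon-stimulated genes listed for comparison, 12 of the 29 with a promoter held it (41.4%). The stretches are written 5′ to 3′ along the strand of the gene with the core matches in capitals, whether they lie on that strand or read as the reverse complement.
Isg15, chr4:156200865-156200906, minus strand: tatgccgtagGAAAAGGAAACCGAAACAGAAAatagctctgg
Ifit1, chr19:34640775-34640823, plus strand: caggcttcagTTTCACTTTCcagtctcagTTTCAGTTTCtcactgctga
Ifit3, distal stretch, chr19:34583363-34583392, plus strand: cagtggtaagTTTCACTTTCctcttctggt
Ifit3, proximal stretch, chr19:34583397-34583426, plus strand: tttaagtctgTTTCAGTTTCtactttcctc
Rsad2, chr12:26456553-26456582, minus strand: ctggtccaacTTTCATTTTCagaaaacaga
Bst2, chr8:71537577-71537612, minus strand: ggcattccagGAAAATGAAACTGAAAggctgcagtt
Isg15 and Bst2 hold runs of the core in which matches overlap, and Ifit1 and Ifit3 each hold 2 separate matches. No match of these letters was present in the windows of Ifit2, Irf7 and Oasl2. The match is a description of the sequence and not a measured binding site.

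In the genome (GENCODE M21, GRCm38, the build called mm10) the 3 Ifit genes lie side by side on the plus strand of chromosome 19, Ifit2 at 34550694 to 34576419, Ifit3 at 34583531 to 34588731 and Ifit1 at 34640871 to 34650009. The other genes are on chromosomes 4 (Isg15), 5 (Oasl2), 6 (Usp18), 7 (Irf7), 8 (Bst2) and 12 (Rsad2). Of the 75-base windows in the exons of Ifit3, 41.11% are also found in its neighbour Ifit3b, so the values of Ifit3 depend on how shared reads were assigned. For Ifit1 the share was 5.19%, with Ifit1bl2, and for the other 7 genes it was 0. Irf7 overlaps Phrf1 and Usp18 overlaps a lincRNA gene on the opposite strand. The strand setting of the counting was not given, so reads of these pairs may not have been separated.

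The libraries held 26759463 to 42914295 counted reads, and 2 null libraries stood apart from the others of their tissue. Levels are given as CPM, read counts scaled to a common library size. Null liver 1 held 2627 CPM of the skeletal muscle actin Acta1 against at most 1.78 in the other 5 liver libraries, while its albumin level was within their range. Null lung 1 held 35.3 CPM of the surfactant gene Sftpc against 15725 to 22458 in the other 5 lung libraries, and its summed level over 10 lung epithelial markers was 740 CPM against 27286 to 35806. It also held 5075 CPM of Acta1, 7927 CPM of the atrial gene Nppa and 2666 CPM of the thyroid gene Tg, so the library labelled null lung 1 goes against its tissue label. Genes named in these sentences were chosen after their values were seen. Man1a2 itself was lower in every null than in every WT library. It was at 36.8 to 40.4 against 40.7 to 67.5 CPM in liver and at 56.7 to 66.3 against 99.5 to 141 CPM in lung. Groups also did not overlap for 46.6% of all genes in liver and 36.1% in lung. By the edgeR test described below Man1a2 was called in neither tissue with all 6 libraries. DESeq2 called it in both (adjusted p = 0.0462 in liver and 0.000294 in lung).

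In WT mice 7 of the 9 genes were expressed at higher levels in the newborn liver than in the newborn lung. Per length of annotated exons (RPKM, which is CPM divided by exon length in kilobases), Bst2 led in both tissues, with 56.3 ± 8.82 (SD, n = 3) in liver and 33.0 ± 4.50 in lung. The length merges the exons of all annotated transcripts of a gene, so the order of the genes depends on it. For Irf7 it was 3776 bases, the whole span of the gene, so its RPKM may be too low for the spliced transcript. In liver Rsad2 followed with 46.1 ± 16.1 RPKM and Isg15 with 39.8 ± 16.7 RPKM, and the ranges of these 3 genes overlapped. Ifit3 with 12.9 ± 2.60 RPKM and Irf7 with 11.7 ± 1.47 RPKM formed a middle pair whose ranges also overlapped. Usp18, Ifit2 and Ifit1 had means between 5.24 and 6.72 RPKM and could not be ordered by their ranges, and Oasl2 was the lowest with 1.69 ± 0.835 RPKM. The order was different in lung, where Isg15 was second with 7.34 ± 1.48 RPKM. Ifit2 came next with 5.0 ± 0.381 RPKM, above Usp18 with 4.14 ± 0.596 and Rsad2 with 3.75 ± 1.35, whose ranges overlapped.

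The difference between WT lung and WT liver was called for 7 of the 9 genes, all lower in lung. In this fit liver and lung of the same mouse were not paired. A gene was called when the quasi-likelihood test of edgeR gave a p under 0.05 after Benjamini-Hochberg correction over all genes (the adjusted p) and its fold change was at least 1.2. Of all 15635 genes tested, 77.0% were called in either direction, so the share of these genes called was close to the background, and the median log2 fold change was -2.06 over the 9 genes and 0.04 over all genes. For 7 of the 9 genes the lung and liver libraries did not overlap, against 81.3% of all genes. Rsad2 differed most, with 280, 155 and 164 CPM in the 3 WT liver libraries and 12.1, 23.0 and 13.8 CPM in the 3 WT lung libraries on a scale common to both tissues. Its log2 fold change was -3.62 (standard error, SE, 0.31, adjusted p = 3.91e-06), a lung level 0.0811 times that in liver. Isg15 (-2.45), Ifit3 (-2.37), Irf7 (-2.10) and Ifit1 (-2.06) were lower in lung by similar amounts, with standard errors of 0.11 to 0.29. Bst2 (-0.77) and Usp18 (-0.70) were lower by less. In a fit over all 12 libraries Usp18 was not called (-0.68, adjusted p = 0.0802) and 6 genes remained, and with the size factors of DESeq2 Ifit2 was called as well (-0.30, adjusted p = 0.0469).

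In the Ifit cluster Ifit2 was not called. Ifit2 had 28.1, 20.6 and 23.5 CPM in WT liver and 18.0, 19.9 and 21.0 CPM in WT lung, and the ranges of the tissues overlapped. Its log2 fold change was -0.29 (SE 0.13, adjusted p = 0.0594). Oasl2 had 16.1, 5.48 and 10.7 CPM in WT liver and 11.9, 3.76 and 6.56 CPM in WT lung, so the libraries numbered 1 were the highest and those numbered 2 the lowest in both tissues. Without regard to the number, the log2 fold change of Oasl2 was -0.53 (SE 0.44, adjusted p = 0.298). The replicate block here compares lung with liver of the same number, taken as the same mouse. With it the log2 fold change was -0.56 with an adjusted p of 0.00412, and Oasl2 was then called. Without WT lung 1 it was also called, at -1.06 (adjusted p = 0.0440), and Ifit2 was called without WT liver 2, at -0.39 (adjusted p = 0.0156). Markers of most cell types differed in this comparison, where 77.0% of all genes were called and 5812 of 15635 were called lower in WT lung. All 12 macrophage markers, all 8 neutrophil markers and 7 of the 9 lymphocyte markers tested were called lower. So were all 4 red cell and all 8 hepatocyte markers tested, whereas 7 of 8 endothelial and all 10 lung epithelial markers were called higher. The part of these cells in the difference was not tested. In bulk tissue, fewer cells of a type and less RNA per cell cannot be told apart.

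**Figure D1:**
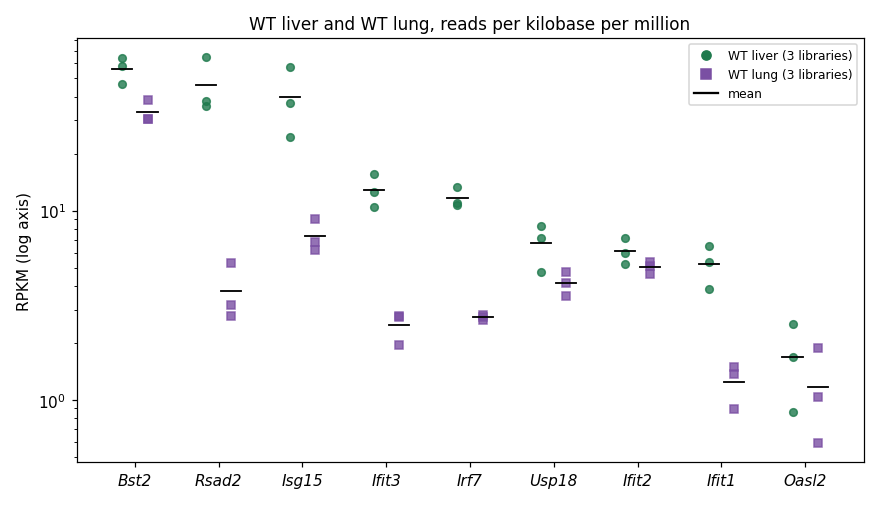
Levels of the 9 genes in WT liver (circles) and WT lung (squares) in RPKM on a log axis, with 1 point per library and a line at the mean of 3. Bst2, Rsad2 and Isg15 are highest in liver, Rsad2 falls furthest in lung (46.1 against 3.75), and Ifit2 and Oasl2 overlap between the tissues.

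Between null and WT liver none of the 9 genes was called with all 6 libraries, against 26.9% of the 14343 genes tested. A single gene, Bst2, had an unadjusted p under 0.05, and DESeq2 also called none of the 9, with 2 under an unadjusted p of 0.05, against 30.7% of the 14810 genes to which it gave an adjusted p. The WT and null libraries overlapped for all 9 genes, while 46.6% of all genes did not overlap. The median log2 fold change of the 9 genes was 0.04 and that of all genes was 0.02.

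The Ifit genes, whose products bind RNA, were uneven among the liver libraries. Ifit1 had 12.6, 7.43 and 10.3 CPM in WT liver and 5.73, 8.14 and 9.01 CPM in null liver. Ifit3 had 19.9, 13.1 and 15.9 CPM in WT liver and 6.27, 15.4 and 21.4 CPM in null liver. Null liver 1 was the lowest of the 6 libraries for both genes, and the other null libraries lay within or close to the WT range. Ifit2 had 20.6, 14.9 and 17.0 CPM in WT liver and 11.2, 14.5 and 19.2 CPM in null liver, again lowest in null liver 1. The log2 fold changes of null over WT were -0.41 for Ifit1, -0.23 for Ifit2 and -0.18 for Ifit3, with 95% intervals from -0.98 to 0.16, from -0.72 to 0.27 and from -1.10 to 0.73. Without null liver 1 they were -0.24, -0.05 and 0.18, so that of Ifit3 changed sign. Ifit3b, which shares windows with Ifit3, had 3.25 to 5.21 CPM in WT liver and was also lowest in null liver 1, at 1.76 CPM.

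Oasl2, an antiviral relative of the oligoadenylate synthetases, was the most variable of the genes in liver. It had 11.8, 3.96 and 7.73 CPM in WT liver and 1.53, 6.49 and 8.78 CPM in null liver. Null liver 1 was far below the others, with 54 reads, and the remaining null libraries lay inside the WT range. The log2 fold change was -0.49 with a 95% interval from -1.90 to 0.92, and it was -0.04 without null liver 1. Usp18, the ISG15 protease, had 16.9, 9.57 and 14.4 CPM in WT liver and 9.90, 13.2 and 21.4 CPM in null liver. The range of the null libraries was the wider, and the difference of 0.12 had an interval from -0.60 to 0.84, and it was 0.34 without null liver 1.

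Isg15, the modifier that Usp18 removes, had 31.9, 13.4 and 20.3 CPM in WT liver and 20.6, 31.3 and 35.9 CPM in null liver. The null mean was higher, but WT 1 lay above the second highest null library. The log2 fold change was 0.42 (interval -0.33 to 1.17, adjusted p = 0.358), and without null liver 1 it was 0.62 (adjusted p = 0.168). Irf7, the transcription factor, was the steadiest gene. It had 30.3, 29.3 and 36.6 CPM in WT liver and 33.3, 33.1 and 32.7 CPM in null liver, and its log2 fold change of 0.04, with or without null liver 1, had the narrowest interval of the 9, from -0.21 to 0.29 with all libraries.

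Rsad2, which makes an antiviral nucleotide, had 205, 112 and 119 CPM in WT liver and 191, 218 and 201 CPM in null liver. The 3 null libraries were close together and WT 1 lay among them, whereas WT 2 and WT 3 were lower. The log2 fold change was 0.48 (SE 0.23, adjusted p = 0.156) and 0.53 without null liver 1 (adjusted p = 0.160), and of all the alternatives run Rsad2 was called in the one that left out WT liver 1, at 0.81 (adjusted p = 0.0184). Bst2, the virion tether, had 38.2, 30.6 and 42.0 CPM in WT liver and 40.7, 47.5 and 61.0 CPM in null liver. All 3 null libraries exceeded WT 1 and WT 2, and null liver 1 was below WT 3. Its log2 fold change was 0.43 (SE 0.18, adjusted p = 0.108). Without null liver 1, Bst2 rose by 0.56 (SE 0.17, adjusted p = 0.0485) and both null libraries exceeded all WT libraries. It was then the 1 gene of the 9 that was called or did not overlap, against backgrounds of 23.8% called and 55.2% not overlapping among 14501 genes. Markers of plasmacytoid dendritic cells, which carry Bst2 in mice, summed to 25.8 to 28.8 CPM in WT liver and 65.5, 30.9 and 38.5 CPM in null liver, of which Tcf4 gave 18.2 to 18.6 and 33.7, 25.0 and 32.6 CPM. Of the sum in null liver 1, 23.1 CPM was Cox6a2, a gene also of muscle, which was at 0.0972 to 0.186 CPM in the other liver libraries. Their defining marker Siglech was at 1.18 to 2.15 CPM in WT liver and at 1.30, 0.668 and 0.680 CPM in null liver, and the part of these cells was not tested.

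**Figure D2:**
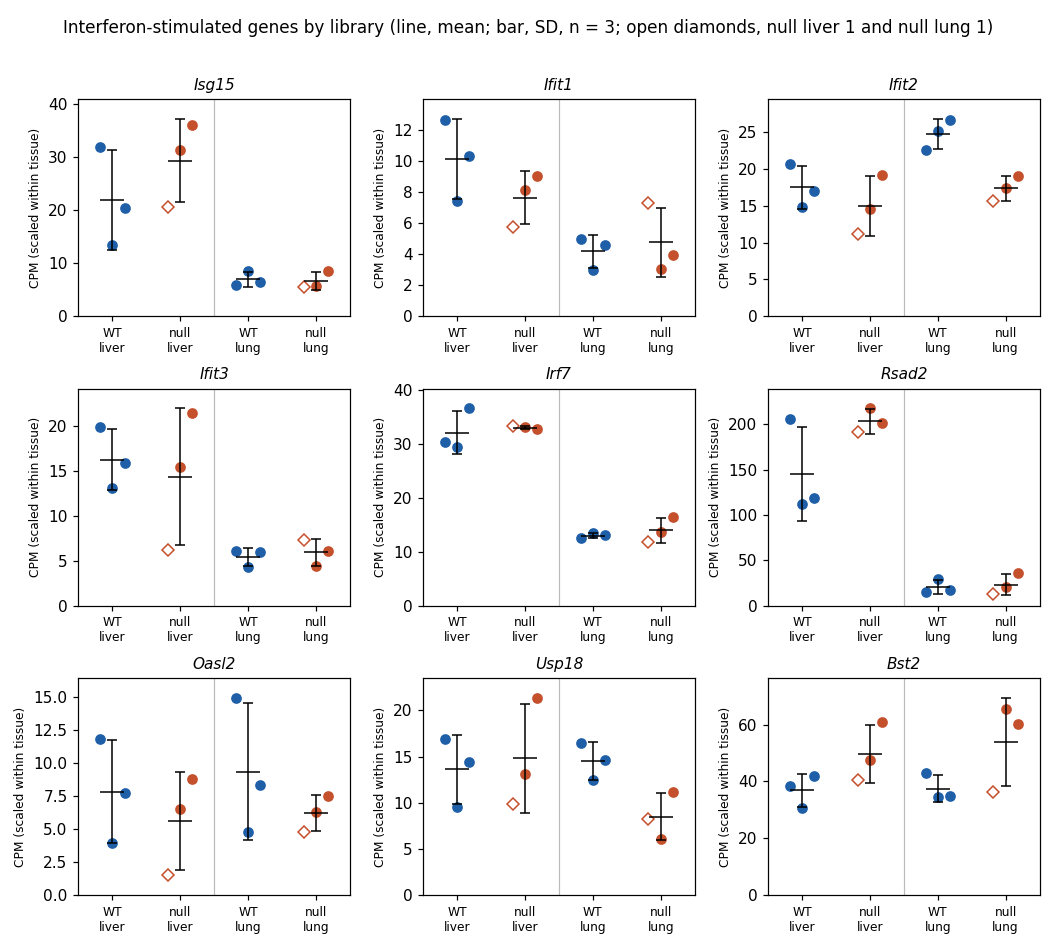
CPM, scaled within each tissue, of the 9 genes in every library of WT (blue) and null (red) mice, with the mean and SD of 3 libraries. The groups overlap for all 9 genes in liver, and in lung all null libraries lie below all WT libraries for Ifit2 and Usp18; open diamonds mark null liver 1 and null lung 1.

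Between null and WT lung none of the 9 genes was called with all 6 libraries, and 0.327% of the 15591 genes tested were called. Ifit2 and Usp18 had an unadjusted p under 0.05 and were the 2 genes of the 9 whose groups did not overlap, against 36.1% of all genes. DESeq2 called 1 of the 9, Ifit2, and 14.7% of the 15961 genes to which it gave an adjusted p. The median log2 fold change was 0.10 over the 9 genes and 0.06 over all genes. Without null lung 1, 37.0% of 15885 genes were called and 61.8% did not overlap. Of the 9 genes, 2 were then called, Ifit2 lower and Bst2 higher, and 4 did not overlap.

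Ifit2 had 22.6, 25.1 and 26.5 CPM in WT lung and 15.7, 17.3 and 19.1 CPM in null lung. Every null library was below every WT library, and the exact permutation test over the 6 libraries gave p = 0.1 (two-sided), the smallest that 3 against 3 can give. The log2 fold change was -0.51 (SE 0.16, adjusted p = 0.128), and DESeq2 gave -0.50 (adjusted p = 0.0477). Without null lung 1, Ifit2 fell by 0.44 on the log2 scale (SE 0.13, adjusted p = 0.0347). Its neighbours in the cluster did not show this separation. Ifit1 had 4.96, 2.98 and 4.58 CPM in WT lung and 7.27, 3.05 and 3.95 CPM in null lung, and Ifit3 had 6.08, 4.26 and 6.01 CPM against 7.35, 4.39 and 6.09 CPM. The highest value of both was in null lung 1, and without it their log2 fold changes were -0.26 and -0.06.

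Usp18 had 16.5, 12.4 and 14.7 CPM in WT lung and 8.26, 6.06 and 11.2 CPM in null lung. Every null library was again below every WT library, with the same exact p of 0.1. The log2 fold change was -0.77 (SE 0.28, adjusted p = 0.162), and without null lung 1 it was -0.75 (adjusted p = 0.0612), so it was called in neither. Isg15, whose product Usp18 removes from proteins, had 5.85, 8.60 and 6.53 CPM in WT lung and 5.53, 5.64 and 8.50 CPM in null lung. The groups spanned the same range, and the log2 fold change was -0.09 (interval -0.78 to 0.60), or 0.02 without null lung 1.

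Bst2 had 43.2, 34.6 and 34.7 CPM in WT lung and 36.3, 65.4 and 60.3 CPM in null lung. Null lung 1 lay inside the WT range and the other null libraries were well above it. With all 6 libraries the log2 fold change was 0.53 (SE 0.25, adjusted p = 0.244), and without null lung 1 Bst2 rose by 0.74 (SE 0.13, adjusted p = 0.00476). Plasmacytoid dendritic cells are a source of interferon, and Siglech was low in every lung library, at 0.243 to 0.580 CPM in WT lung and 0.189 to 0.627 CPM in null lung. The sum of 9 such markers was 136 to 161 CPM in WT lung, 229 and 212 CPM in null lung 2 and 3 and 438 CPM in null lung 1. In WT and in null lung 2 and 3 Tcf4 gave 128 to 152 and 214 and 199 CPM of it, and Cd209d was at or near 0. In null lung 1 Cox6a2 gave 242 CPM, against 2.92 to 8.04 CPM in the other lung libraries. The summed neutrophil markers were 244 to 402 CPM in WT lung and 638 and 670 CPM in null lung 2 and 3, with 255 CPM in null lung 1. The part of these cells in the Bst2 difference was not tested.

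Irf7, Rsad2 and Oasl2 did not separate null from WT lung with all libraries. Irf7 had 12.5, 13.4 and 13.1 CPM in WT lung and 11.7, 13.7 and 16.3 CPM in null lung. Without null lung 1 both null libraries were above WT, by 0.21 on the log2 scale (adjusted p = 0.295). Rsad2 had 15.1, 29.0 and 17.4 CPM in WT lung and 13.4, 20.7 and 35.8 CPM in null lung, with an interval for the log2 fold change from -0.84 to 1.21. Without null lung 1 its log2 fold change was 0.47 (adjusted p = 0.281). Oasl2 had 14.9, 4.75 and 8.30 CPM in WT lung and 4.81, 6.32 and 7.50 CPM in null lung, and WT 1 and WT 3 lay above all null libraries while WT 2 lay below them. Its log2 fold change was -0.59 with all libraries and -0.44 without null lung 1 (adjusted p = 0.440 in both).

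**Figure D3:**
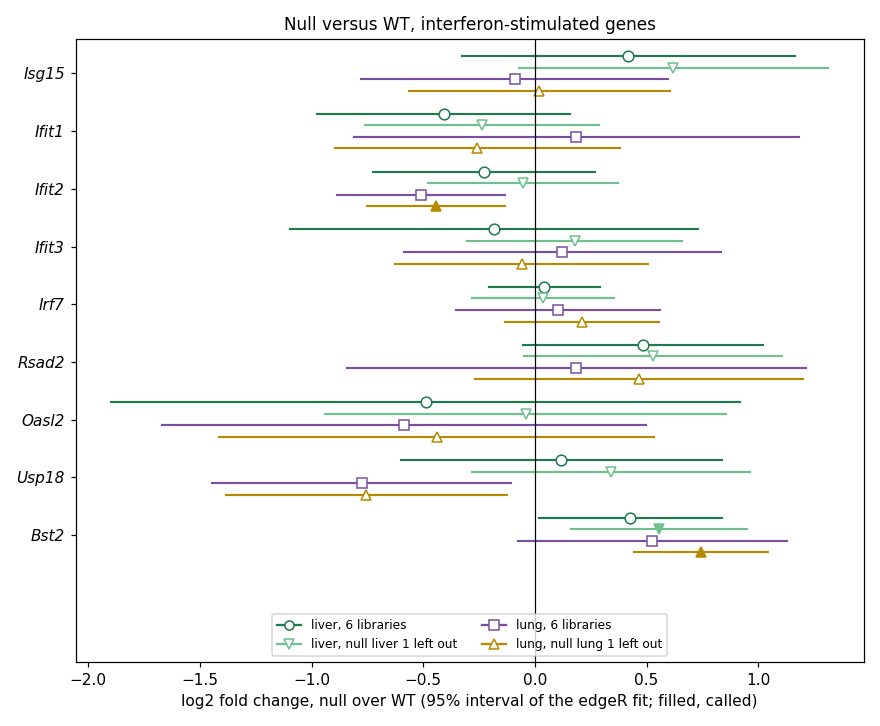
Log2 fold change of null over WT for each gene, with the 95% interval of the edgeR fit, in liver and lung with all 6 libraries and without null liver 1 or null lung 1; filled symbols are called. Ifit2 in lung (-0.44) and Bst2 in liver (0.56) and lung (0.74) are called in the fits without the library that stood apart and not with all 6 libraries.

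The difference between the lung and liver effects of the null genotype was called for none of the 9 genes, and 0.371% of 16155 genes were called. None of the 9 had an unadjusted p under 0.05 in this fit, which did not pair the tissues of a mouse. With the replicate block 1 of the 9 had, and none was called. In the unpaired fit the largest difference was that of Usp18, at -0.90 on the log2 scale (interval -1.88 to 0.08, adjusted p = 0.406). With null liver 1 and null lung 1 left out, it was -1.09 (adjusted p = 0.165), none of the 9 was called, and 5.18% of 16216 genes were called. For Bst2 the difference between the tissues was 0.10, with an interval from -0.63 to 0.82. The lower Ifit2 in null lung was therefore not shown to be particular to lung, since its difference from liver was -0.29 with an interval from -0.89 to 0.31.

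Libraries of the same genotype differed in these genes. In liver the median biological coefficient of variation was 0.242, against a median of 0.18 over all genes, and in lung it was 0.329, close to 0.309 over all genes. These values include null liver 1 and null lung 1, and genes of like level were not compared. Averaged over the 9 genes as the log2 deviation from the tissue mean, WT liver 1 was at 0.36 and WT liver 2 at -0.39. Null liver 1 was at -0.52 and null liver 3 at 0.40. Each genotype thus had a high and a low liver library. All 9 genes were above the tissue mean in null liver 3 and none was in WT liver 2, which was the lowest library for 5 of them, and null liver 1 was the lowest for the other 4. In lung the averages lay between -0.19 and 0.21.

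Across the 6 liver libraries, Ifit1, Ifit2, Ifit3 and Oasl2 correlated with each other at 0.84 to 0.97, or 0.63 to 0.89 without null liver 1, which was the lowest for all 4. In the 6 lung libraries the same pairs ran from -0.34 to 0.94. In liver Isg15 correlated with Rsad2 at 0.85 (0.93 without null liver 1), whereas Irf7 had correlations between -0.15 and 0.48 with the other 8. Over all 12 libraries, centred within tissue, 26 of the 36 pairs had positive correlations, with a median of 0.35. Without null liver 1 and null lung 1, 27 of the 36 were positive, with a median of 0.36. These values describe libraries that share their depth and dissection.

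**Figure D4:**
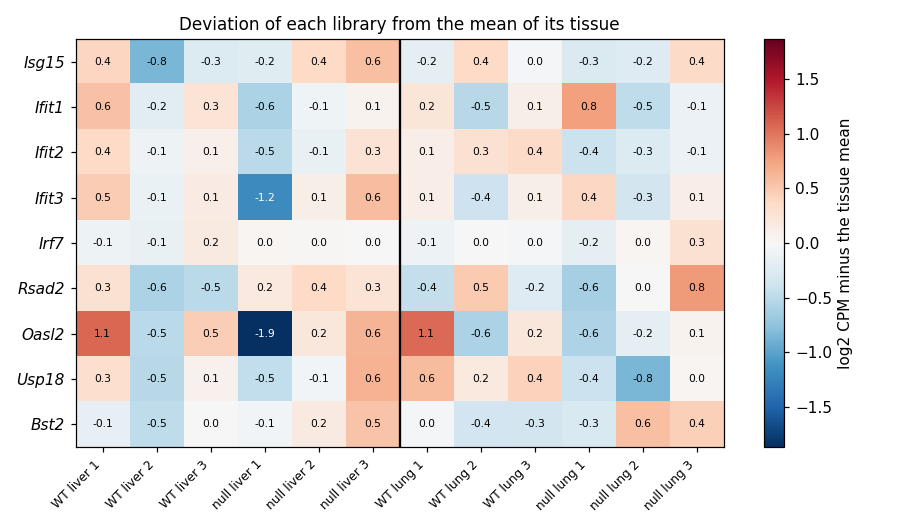
Deviation of log2 CPM from the mean of the tissue for each gene (rows) and library (columns), with WT and null libraries of liver left of the line and of lung right of it. Oasl2 spans -1.87 in null liver 1 to 1.07 in WT liver 1, and each genotype has a liver library that is high and one that is low over most of the genes.

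The other genes of the pathway were examined in the order in which the signal passes. Of the 21 interferon genes listed, none had enough reads to be tested, and together they had 0 to 8 reads per library. The interferon-beta gene Ifnb1 had 0 reads in every library, which allows a level of up to 0.0702 to 0.114 CPM, counting error only. In lists chosen from the pathway, 120 genes could be tested in liver without null liver 1 and 27 of them were called (22.5%). In lung without null lung 1, 31 of 118 were called (26.3%). The percentages over all genes were 23.8% and 37.0%. Of the listed genes tested in both tissues, 13 of 118 were called in both without these 2 libraries, all 13 in the same direction. Of all 14049 genes tested in both, 14.2% were called in both, and 95.1% of those had the same direction.

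Of the receptor chains, Ifnar2, to which Usp18 binds, was higher in null liver, with 61.0, 59.4 and 61.5 CPM in WT and 89.5, 87.5 and 78.0 CPM in null. The groups did not overlap, as for 46.6% of all genes. Ifnar2 rose by 0.49 (SE 0.10, adjusted p = 0.0113), and by 0.45 without null liver 1 (adjusted p = 0.0242). The call was lost without WT liver 3 (adjusted p = 0.0510) and in a fit over all 12 libraries (adjusted p = 0.0942). In lung it was not called with 6 libraries (0.15), and it rose by 0.34 without null lung 1 (adjusted p = 0.0366). The partner chain Ifnar1 had log2 fold changes of 0.07 in liver and -0.22 in lung and was not called. Of 6 receptor chains, 1 was called higher and 1 lower in liver, where 26.9% of all genes were called. The lower one was Il10rb, at -0.37, and it was called in 1 of the 6 fits with a library left out. Jak2, the kinase of the interferon-gamma receptor, had 56.0, 51.7 and 49.6 CPM in WT liver and 105, 108 and 112 CPM in null liver, and it rose by 1.05 (adjusted p = 0.00201), and by 1.07 without null liver 1. In lung Jak2 was not called with all 6 libraries, and it rose by 0.76 without null lung 1, where 37.0% of all genes were called.

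Stat2 and Irf9, which act together on the response element, were not called in either tissue, with or without the libraries that stood apart. In liver the log2 fold change was -0.25 for Stat2 and 0.26 for Irf9. In lung Stat2 was at 0.08 and Irf9 at 0.01. Irf3, the factor that starts interferon transcription, was lower in null liver. It had 22.6, 20.3 and 23.3 CPM in WT liver and 11.1, 11.6 and 8.33 CPM in null liver, and it fell by 1.09 on the log2 scale (adjusted p = 0.00388), and by 1.14 without null liver 1. In lung Irf3 was not called with all 6 libraries, and it fell by 0.92 without null lung 1, where 37.0% of all genes were called. Of 11 kinases and factors of these families tested in liver, 1 was called higher and 3 lower, where 26.9% of all genes were called. The other 2 called lower were Irf2 and Irf5, each called in 1 of the 6 fits with a library left out. Irf2 was also called lower in lung without null lung 1.

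Among 18 sensors and adaptors of nucleic acid detection, 2 were called higher and 5 lower in liver, where 26.9% of all genes were called. Mavs, the mitochondrial adaptor of the RNA sensors, fell most. It had 46.2, 37.8 and 40.1 CPM in WT liver and 13.7, 10.4 and 11.05 CPM in null liver. The groups were far apart, at -1.82 on the log2 scale (SE 0.14, adjusted p = 0.00201), or -1.94 without null liver 1. Mavs was at 18.2, 19.3 and 19.2 CPM in WT lung and 15.3, 6.71 and 11.2 CPM in null lung, and it fell by 1.08 without null lung 1 (adjusted p = 0.00931). Irak4, a kinase of Toll-like receptor signalling, fell by 1.21 in liver and by 1.33 in lung without null lung 1, and Tlr3, the receptor for double-stranded RNA, fell by 1.04 in liver. The ligase Traf6 rose by 0.92 in liver and 1.1 in lung without null lung 1. The kinase Tbk1, which phosphorylates IRF3, rose by 0.36 (adjusted p = 0.0448) and 0.75. The 4 liver values without null liver 1 were -1.23 (Irak4), -0.83 (Tlr3), 0.99 (Traf6) and 0.41 (Tbk1), all still called. The liver call of Tbk1 was lost when any other library was left out, under both other count filters and in a fit over all 12 libraries. It was also lost with the replicate block, which in liver matched WT and null by number although they are different mice. Adjusted p in these fits ran from 0.0507 to 0.325. The liver call of Tlr3 was lost whichever WT library was left out (adjusted p up to 0.0712) and that of Irak4 without WT liver 2 (adjusted p = 0.0502). In lung with all 6 libraries none of the 18 was called.

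**Figure D5:**
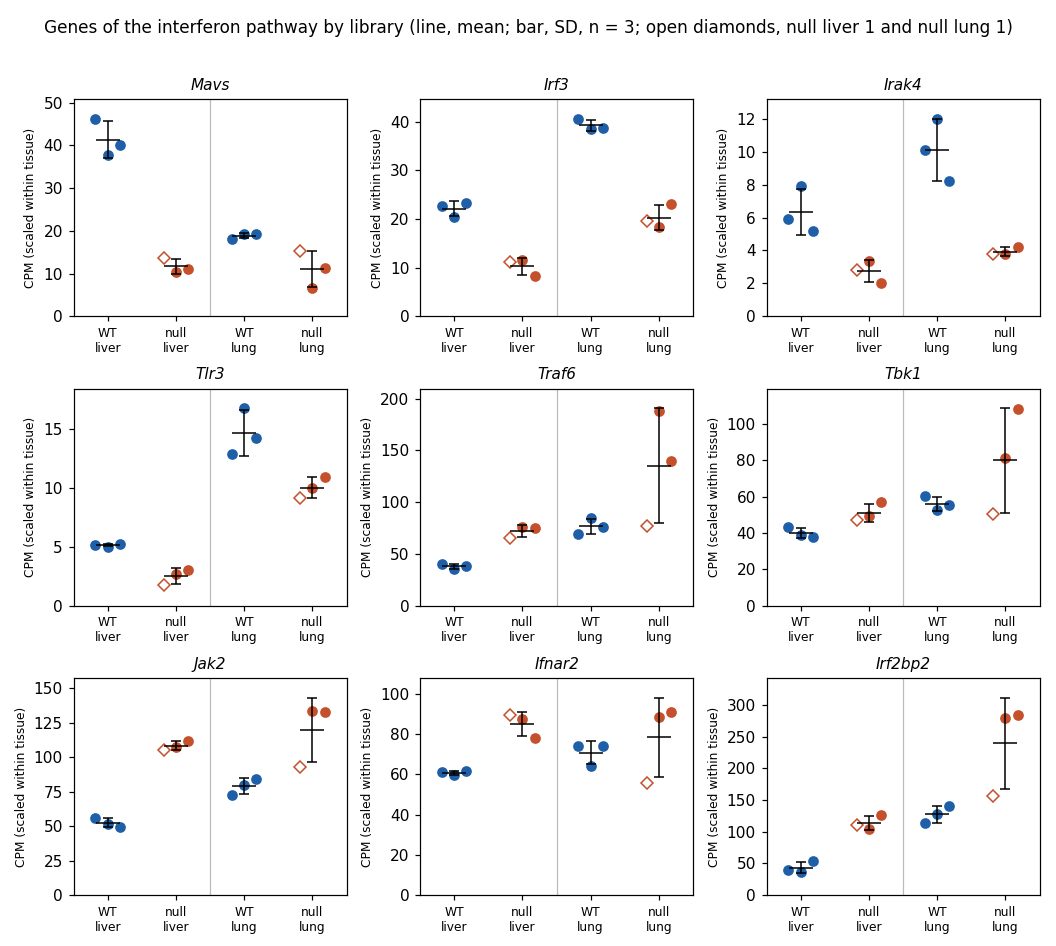
CPM, scaled within each tissue, of 9 genes upstream of the interferon-stimulated genes in every library, with the mean and SD of 3 libraries; open diamonds mark null liver 1 and null lung 1. In liver the null libraries lie below WT for Mavs, Irf3, Irak4 and Tlr3 and above WT for Traf6, Tbk1, Jak2, Ifnar2 and Irf2bp2 without overlap. These 9 were picked from the genes called in liver, so their separation is not a separate result. Of all genes, 46.6% did not overlap there.

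Of the enzymes that attach ISG15 to proteins, none was called in liver with all 6 libraries, against 26.9% of all genes. Ube2l6, the conjugating enzyme, had 188, 150 and 162 CPM in WT liver and 201, 270 and 223 CPM in null liver. The groups did not overlap, as for 46.6% of all genes. The log2 fold change of Ube2l6 was 0.47 (adjusted p = 0.0515), and that of the activating enzyme Uba7 was 0.49 (adjusted p = 0.0690). Without null liver 1 both were called, at 0.56 (adjusted p = 0.0322) and 0.64 (adjusted p = 0.0226), where 23.8% of all genes were called. DESeq2 called both with all 6 libraries, and 30.7% of all genes. The ligase Herc6 was at 0.13 in liver and was not called. In lung none of the 3 was called with or without null lung 1.

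Of 41 other interferon-stimulated genes tested in liver, 1 was called higher and 5 lower, against 26.9% of all genes, and their median log2 fold change was -0.12. Without null liver 1 the counts were 1 and 3, where 23.8% of all genes were called. Mx2, a dynamin-like antiviral GTPase, had 4.31, 3.03 and 3.61 CPM in WT liver and 6.49, 11.1 and 19.6 CPM in null liver and rose by 1.76 (adjusted p = 0.0155), whereas its relative Mx1 was at -0.01. Tor3a fell by 1.79, the nucleic acid sensor Ifi204 by 1.04 and the nuclear body gene Sp100 by 0.72. With null liver 1 left out the values were 2.07 (Mx2), -1.70 (Tor3a), -0.92 (Ifi204) and -0.59 (Sp100), all still called. The call of Mx2 was lost without WT liver 2 or WT liver 3 (adjusted p = 0.0634 and 0.0637), that of Sp100 without WT liver 1 or WT liver 3 (0.0773 and 0.0879), and those of Sp100 and Ifi204 in a fit over all 12 libraries (0.0814 and 0.0633). In lung Tor3a was at 0.08, and the difference between the tissues was 1.87 (adjusted p = 0.0972). In lung none of the 41 was called with 6 libraries, and 2 were called higher and 3 lower without null lung 1, against 37.0% of all genes. In WT mice 29 of the 41 were called lower in lung than in liver and 3 higher, where 77.0% of all genes were called, among them Ifitm1, a membrane protein that blocks virus entry, at 2.79.

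Of 29 genes known for their response to interferon-gamma, 4 were called higher and 3 lower in liver, close to the 26.9% of all genes. The chemokine Cxcl11 rose by 2.04, the GTPase Iigp1 by 0.82 and the antigen presentation gene Tapbp by 0.69. The class II transactivator Ciita fell by 1.86 and the GTPases Irgm2 and Igtp fell by 1.67 and 1.2. Cxcl11 and Ciita rested on few reads, and 3 reads stood for 0.0786 to 0.0972 CPM in these libraries. Cxcl11 had 0.109, 0.0929 and 0.288 CPM in WT liver and 0.425, 0.507 and 1.17 CPM in null liver. Ciita had 0.709, 0.619 and 0.969 CPM in WT liver and 0.227, 0.320 and 0.0648 CPM in null liver. Leaving out null liver 1 gave log2 fold changes of 2.29 (Cxcl11), 0.84 (Iigp1), 0.73 (Tapbp), -1.92 (Ciita), -1.69 (Irgm2) and -1.16 (Igtp), all still called. The call of Cxcl11 was lost without WT liver 1, WT liver 2, null liver 2 or null liver 3 (adjusted p from 0.0513 to 0.125) and with a filter of 1 count (0.0529). That of Tapbp was lost without WT liver 1, WT liver 3, null liver 2 or null liver 3 (0.0522 to 0.0640), and that of Ciita whichever WT library was left out (0.0640 to 0.112) and with the replicate block (0.0665). In a fit over all 12 libraries Cxcl11, Iigp1 (0.0786) and Ciita (0.0642) were not called. Of 12 negative regulators, Irf2bp2 rose by 1.39 and Pias1 by 0.69 in liver and Ptpn6 fell by 0.53. These were, without null liver 1, 1.41, 0.67 and -0.56, and the call of Ptpn6 was lost in a fit over all 12 libraries (adjusted p = 0.368). In lung none of the 12 was called with all 6 libraries. Without null lung 1, where 37.0% of all genes were called, Irf2bp2 rose by 1.14 and Ptpn6 fell by 0.57. Lymphocyte markers summed to 68.7 to 77.2 CPM in WT liver and 69.0, 55.2 and 43.9 CPM in null liver. Of the 9 tested, 1 was called lower, or 5 of 9 without null liver 1, where 23.8% of all genes were called. Neutrophil markers summed to 1675 to 3351 CPM in WT liver and 2401 to 3721 CPM in null liver, with 3 of 8 called higher. Macrophage markers summed to 980 to 1027 CPM and 908 to 1147 CPM. Their part in the results for the interferon genes was not tested.

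Among genes outside these lists, Itpripl1 followed the mean of the 9 genes most closely over the 12 libraries (r = 0.92 of 12251 genes compared, centred within tissue), followed by Mtcp1 (0.85), Nupl2 (0.81), Bak1 (0.79) and Fam160b2 (0.79). Without null liver 1 and null lung 1 they stood at ranks 30, 94, 19, 393 and 22, so the order of these genes rested on those libraries. Of the listed genes that are not among the 9, Adar was closest (0.90, and 0.94 without both libraries), followed by Mx1 (0.86 and 0.86), Dhx58 (0.86 and 0.88) and Stat2 (0.85 and 0.77), all of them interferon-stimulated themselves. These correlations describe 12 libraries with shared depth and dissection.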

How the data were processed

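The authors deposited 1 table of raw read counts per gene for each of the 12 libraries (stranded polyadenylated RNA), from which the genes were taken by symbol. The submitters' processing notes name FastQC, STAR 2.5.2a, DESeq2 and build mm10 without roles, and the counting program, annotation and strand setting are not given in the sources used here. Groups came from the library titles, and liver and lung came from 3 WT and 3 null mice. R 4.3.3 with edgeR 4.0.16 was used: filterByExpr, TMM factors, glmQLFit and glmQLFTest with Benjamini-Hochberg adjustment over all genes tested, within each tissue, with all 12 libraries for the difference of effects, and with the 6 WT libraries for the tissues. A gene was called at an adjusted p under 0.05 and a fold of at least 1.2. Printed CPM use TMM over the 6 libraries of a tissue, or the 6 WT libraries where tissues are compared. RPKM divide these by the merged length of all annotated exons of a gene from GENCODE M21. The limit for a gene without reads was taken as 3 reads. Liver and lung of the same genotype and number deviated together (correlations 0.19 to 0.35 in 6 of 6 pairs). They were therefore taken as 1 mouse, which the titles do not state. For liver and lung of 1 genotype with unlike numbers the correlations were -0.33 to 0.12. For WT and null of 1 tissue with the same number they were -0.17 to 0.16. No 2 libraries were copies (chi-square per gene of at least 12.8). Alternatives were DESeq2 1.42.0, its size factors, other count filters, the replicate block, 20 abundant genes left out, all 12 libraries in 1 fit, and each library left out. Leaving out null liver 1 and null lung 1 together and the values without them were chosen after seeing the data. The fits were also run on counts simulated from their own dispersions, with no library standing apart. The planted changes were larger than any null effect of the 9 genes, so detection of effects of that size was not tested. The 9 genes and the other lists were chosen with earlier results of these data known. All 9 are named in each comparison, with at most the 3 largest called rises and falls of each other list, fixed signalling genes, Man1a2 as the check of the labels, and the 5 genes most like the mean pattern. P-values within a tissue measure the spread between the 3 libraries of a group. Those for WT lung against WT liver and for the difference of effects treat paired libraries as independent, except with the replicate block. Counting intervals cover counting error only. The count tables hold 27 gene names changed to dates. Results for some items are not reported here.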

Additional observations from a re-analysis of the deposited data

How the results depend on the processing

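With 3 libraries per group, and with null liver 1 and null lung 1 standing apart, differences of the size measured for most of the 9 genes could not be told from the spread between libraries. None of the 9 was called in liver, or in the difference between tissues, under any change of tool, scaling, filter or block, and in lung DESeq2 called 1 (Ifit2). With single libraries left out, 0 to 1 of the 9 were called in liver, 0 to 2 in lung and 7 to 8 between the WT tissues. Among all genes, the count called ranged from 1641 (without WT liver 3) to 3451 (without null liver 1) in liver, from 0 (without WT lung 1) to 5881 (without null lung 1) in lung and from 0 (without WT liver 2) to 813 (without null lung 1) for the difference between tissues. A fit over all 12 libraries called 1921 genes in liver and 2284 in lung. DESeq2 called 2339 genes in lung and 604 for the difference, at least 10 counts in every library gave 210 and 92, and at least 1 count in all gave 0 (4096 at an unadjusted p under 0.05) and 33. In lung, the size factors of DESeq2 gave 2 genes and leaving out the 20 most abundant gave 5. Leaving out null liver 1 and null lung 1 gave 840 for the difference, with Ifit1 at -0.023 and Ifit3 at -0.24. The replicate block, which in lung matched WT and null by number although they are different mice, called 0 genes there (2743 unadjusted). For the difference, where it compares the tissues within a number, it called 0 (2224 unadjusted). The block turned Irf9 in lung to -0.052 and Oasl2 in the difference to 0.17. It changed no call of the 9 but that of Oasl2 between the WT tissues. Irf9 in lung was -0.0069 with at least 1 count in all. Log2 fold changes that changed sign when a library was left out ranged in liver from -0.58 to 0.18 (Ifit3), -0.018 to 0.15 (Irf7) and -0.24 to 0.34 (Usp18). In lung they ranged from -0.32 to 0.081 (Isg15), -0.26 to 0.42 (Ifit1), -0.059 to 0.30 (Ifit3), -0.026 to 0.21 (Irf7), -0.26 to 0.52 (Rsad2), -0.22 to 0.25 (Stat2), -0.35 to 0.21 (Irf9) and -0.038 to 0.63 (Ube2l6). In the difference between tissues they ranged from -0.056 to 0.70 (Ifit3), -0.044 to 0.19 (Irf7), -0.72 to 0.044 (Rsad2), -0.55 to 0.43 (Oasl2), -0.065 to 0.34 (Bst2) and -0.51 to 0.18 (Ube2l6). The causes were not tested.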
